A study of Mus musculus with 14 samples.

Results

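The 40 genes described here encode the machinery of mitosis, and they are 40 of the 36161 gene names on the arrays. They were taken by name: each gene was read from the brightest of the probes that carry its symbol, and its value is the log2 of the processed signal minus the 75th percentile of the array, so that a log2 signal of 0 stands for the brightness that 75% of the probes do not exceed. The rule that names them goes by function and uses no measured value, but the members were chosen with earlier results of these data known. All 40 had a probe. No value of these probes was saturated, and 37 of the 40 were well above background on all 14 arrays. Ttk was well above background on 11 arrays, Cenpf on 10 and Aurkb on 7.

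RNA of 14 samples was hybridized, each to 1 one-color array. The groups were small intestine of wild type C57BL/6J mice (3 arrays), adenomas of the intestine of APCmin/+ mice (3), tissue adjacent to those adenomas from APCmin/+ mice (2), colon labelled as C57BL/6J (3) and CT26 cells (3). By the study's methods all mice had the C57BL/6J background and the wild type mice were adult; the age of the APCmin/+ mice is not given in the sources used here. The labels name no treatment, and the methods allowed an analgesic for APCmin/+ mice that suffered. APCmin/+ mice carry a truncating germline mutation in one allele of Apc and form intestinal adenomas, and CT26 is a mouse colon carcinoma cell line that came from a public cell collection (ATCC) and grows without the other cells of a tissue. The study's sample list gives BALB/c as its strain, so strain and cell line cannot be told apart where CT26 is compared with a tissue. The study's sample list puts all adenoma and adjacent pieces in 1 mouse, so their spread is that between pieces of tissue, and the small intestine arrays in different mice. It also puts 1 colon sample in an APCmin/+ mouse, and the methods say that normal colon came from such mice, which goes against the colon labels. Nothing says whether the CT26 samples were separate cultures, so p-values measure the spread between these samples.

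Cells enter mitosis when cyclin B bound to the kinase Cdk1 becomes active. Kinases of the Aurora and Polo families then build the spindle, kinetochores attach the chromosomes to it, and the spindle checkpoint holds the cell until all are attached. The anaphase promoting complex with Cdc20 then marks securin and cyclin B for destruction, separase cuts cohesin, and the midzone divides the cell. Transcripts of these genes rise together in the later part of the cell cycle and are low in cells that have left it. In the intestine, division takes place in the crypts, while the cells of the villus and of the colon surface no longer divide.

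Some arrays and tissues differed in other cells. The summed level of a marker list is the log2 of the sum of its genes' unlogged signals, so its brightest genes weigh most. Colon replicate 3 stood apart. The summed level of 10 enterocyte genes of the small intestine was 11.55 there, against 6.85 and 7.58 on the other colon arrays. That of 8 B cell genes was 5.47 against 2.59 and 2.96. The epididymis list summed to 3.63 and 4.29 in adjacent tissue and 1.38 to 2.17 in adenomas, and to no more than -2.19 elsewhere; it rested on 1 of its 7 genes, Gpx5, the only one well above background on every array of these 2 groups, and 6 of the 7 in adjacent tissue and 5 in adenomas were not on any. That of pancreatic acinar cells, with 2 of 7 genes clearly detected on all arrays of each group, summed to 3.21 to 3.92 in adenomas, and to 4.97 and 3.33 on colon replicates 1 and 2. In small intestine, adjacent tissue and CT26, 5 of the 7 were well above background on no array. In colon 3 were on no array, and in adenomas 0. Of 8 epithelial markers, all were well above background on every tissue array, while in CT26 only 3 were on every array, and Epcam, Cdh1, Krt19 and Vil1 were not on any. The part of these differences in the results below was not tested.

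The mitosis genes were lowest in small intestine and highest in CT26 (heat map of the 40 genes on the 14 arrays). Their median log2 signal was 0.83, 0.36 and -0.36 on the small intestine arrays, 0.85 and 1.08 on the adjacent, 2.24, 1.92 and 2.02 on the adenoma, 1.2, 1.32 and 0.55 on the colon, and 3.55, 4.09 and 3.75 on the CT26 arrays. By this median every adenoma array lay above every array of the other tissues, and every CT26 array above every adenoma array. By group means, 26 genes had the order small intestine, adjacent tissue, colon, adenoma and CT26, from low to high, and 10 the same order with colon below adjacent tissue. The other 4 were Bub3, Aurkb, Cenpf and Pttg1. The share of all genes with these orders is not given here, so the counts describe the members alone. In bulk samples, fewer dividing cells and less RNA of these genes per cell cannot be told apart.

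**Figure D1:**
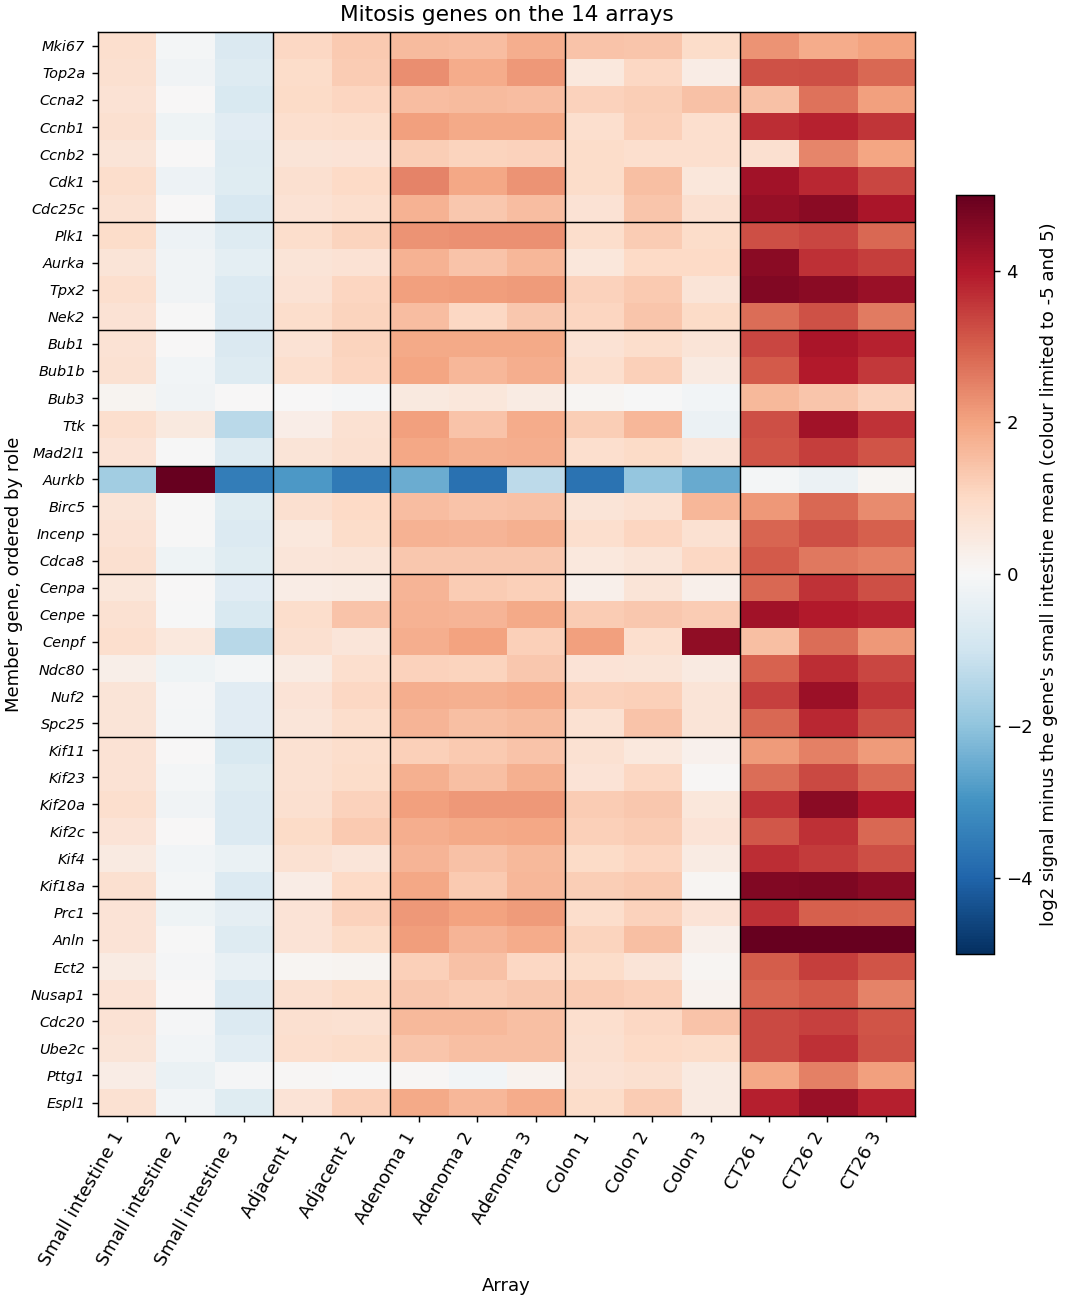
Log2 signal of the 40 mitosis genes (rows, with lines between the roles) on the 14 arrays (columns, with lines between the groups), each minus the gene's mean in small intestine. Most rows are darkest on the 3 CT26 arrays and intermediate on the 3 adenoma arrays, Aurkb is high on small intestine replicate 2 alone, and Cenpf is high on colon replicate 3.

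Within small intestine the genes moved together from array to array. Replicate 1 was the highest and replicate 3 the lowest for 36 of the 40 genes, and 39 lay above their group mean on replicate 1. The median SD of a gene was 0.70 in small intestine, against 0.30 in colon, 0.28 in CT26, 0.14 in adjacent tissue and 0.11 in adenomas. These SDs are not like for like. By the study's sample list the small intestine arrays were different mice, and the adenoma and adjacent arrays pieces of 1 mouse. Replicate 1, whose median of 0.83 was near that of adjacent tissue, also had the lowest summed level of the 10 enterocyte genes (11.16, against 12.21 and 12.38) and the highest of 6 intestinal stem cell genes (5.16, against 4.72 and 4.12). The part of cell composition in this spread was not tested. Over the 14 arrays the correlation of a member with the median of the other members was 0.82 or more for 38 genes, 0.42 for Cenpf and 0.18 for Aurkb; the arrays share groups, so this describes mainly the differences between groups.

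The promoters of the members are shown because these genes are known to share 2 elements. The CHR element, here the letters TTTGAA, is bound by the MuvB complex, which represses mitosis genes in resting cells and, with B-Myb, activates them before division. The CCAAT box is bound by NF-Y. In RefSeq (GRCm38.p6) windows of 300 bases, from 250 before to 50 after the start of the gene, 34 members matched by symbol, and Tpx2, Kif20a, Cdc25c, Incenp, Ccna2 and Aurkb were not in the table. Both strands were searched, and a match of one element can share at most 1 base with the other. TTTGAA was found in 24 of the 34 members (70.6%), and in 20.2% of all 27025 genes in the table. CCAAT was found in 25 (73.5%), against 41.1% of all genes, and both elements in the same window in 21 (61.8%), against 7.97%. The windows of the members had a median GC content of 59.0%, and all windows one of 52.7%.

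The 4 genes with the highest mean log2 fold change over adenoma versus small intestine and CT26 versus colon, among those with both elements, were Cdk1, Espl1, Aurka and Ttk. The 250 bases before their starts are printed 5′ to 3′ on the strand of the gene, with matches of TTTGAA or CCAAT on either strand in capitals. In Aurka and Ttk the TTTGAA match lay after the start, and is not printed.
Cdk1, chr10:69352913-69353162, minus strand: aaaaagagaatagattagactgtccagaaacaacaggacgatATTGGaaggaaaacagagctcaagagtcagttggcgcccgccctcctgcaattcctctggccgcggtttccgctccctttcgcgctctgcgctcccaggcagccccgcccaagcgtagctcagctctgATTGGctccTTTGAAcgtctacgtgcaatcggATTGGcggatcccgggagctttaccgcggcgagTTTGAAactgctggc
Espl1, chr15:102296043-102296292, plus strand: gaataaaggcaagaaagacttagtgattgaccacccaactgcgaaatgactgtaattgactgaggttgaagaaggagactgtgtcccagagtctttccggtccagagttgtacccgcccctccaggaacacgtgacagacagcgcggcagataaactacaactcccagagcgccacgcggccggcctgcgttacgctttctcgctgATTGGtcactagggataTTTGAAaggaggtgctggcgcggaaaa
Aurka, chr2:172370571-172370820, minus strand: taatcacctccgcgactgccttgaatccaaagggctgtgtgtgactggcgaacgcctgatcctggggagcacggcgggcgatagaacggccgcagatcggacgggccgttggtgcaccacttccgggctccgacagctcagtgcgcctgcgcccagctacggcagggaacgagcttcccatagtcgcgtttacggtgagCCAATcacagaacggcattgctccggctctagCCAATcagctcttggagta
Ttk, chr9:83834439-83834688, plus strand: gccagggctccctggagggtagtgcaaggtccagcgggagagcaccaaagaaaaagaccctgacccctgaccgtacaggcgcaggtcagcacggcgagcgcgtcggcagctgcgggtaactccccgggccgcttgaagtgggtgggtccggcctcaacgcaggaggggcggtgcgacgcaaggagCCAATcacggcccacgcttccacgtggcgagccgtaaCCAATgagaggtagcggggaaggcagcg

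Cdk1 had 2 matches of TTTGAA and 3 of CCAAT in the stretch shown, Espl1 had 1 of each, and Aurka and Ttk had 2 of CCAAT. Positions were compared in the 31 members with a single window. A TTTGAA match started within the 50 bases before the start in 6 of them (19.4%) and within the 50 bases after it in 13 (41.9%), against 2.92% and 2.19% of all genes. For CCAAT the share was 48.4% in the 50 bases before the start and 41.9% in the 50 bases before those, against 9.54% and 13.1%. A match is a description of the letters and does not show that a factor binds there.

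**Figure D2:**
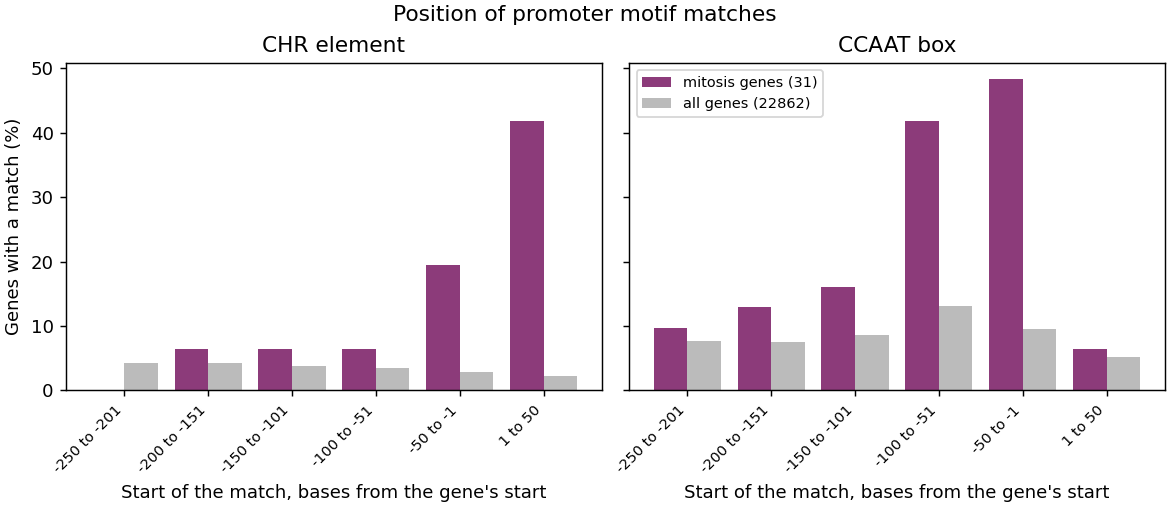
Share of genes with a match (vertical axis, %) by the position of its first base from the start of the gene (horizontal axis, bins of 50 bases, negative before the start), for the 31 mitosis genes with 1 window and all 22862 such genes in the table. The matches of the mitosis genes to the CHR element (TTTGAA, left) lie mostly in the last 2 bins and their CCAAT matches (right) mostly in the 2 bins before the start.

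Adenomas were compared with healthy small intestine to see which genes differ in these early tumors. By the study's sample list the adenomas came from 1 APCmin/+ mouse and the small intestine from wild type mice. In this comparison tumor, genotype and mouse cannot be told apart. Of 39 mitosis genes tested, 26 were higher in adenomas and none lower in limma, with thresholds of 1.2 on the log2 fold change and 0.01 on the adjusted p, where 11.3% of all genes tested were called higher and 11.1% lower. Another 12 had an adjusted p of at most 0.05, which makes 38 higher at that limit alone, where 22.7% of all genes were. The 39 fold changes lay between 0.03 and 2.27 on the log2 scale, with a median of 1.65, where the median of all genes tested was -0.15. Plk1, the Polo kinase that drives entry into mitosis and spindle assembly (probe at chr7:129313220-129313279 in mm9), read 3.39, 2.24 and 1.83 in small intestine, 3.37 and 3.61 in adjacent tissue, 4.74, 4.76 and 4.77 in adenomas, 3.36, 3.75 and 3.40 in colon and 5.70, 5.84 and 5.35 in CT26. The 3 adenoma pieces were nearly alike and above all other tissue arrays. The difference between adenomas and small intestine was 4.83-fold (log2 fold change 2.27, SE 0.38, limma adjusted p = 0.00304). Markers of other cells moved in the same comparison. Of 6 genes tested in each list, 4 of neutrophils and monocytes (median 3.69), 4 of endothelium (2.15), 4 of intestinal stem cells (1.93) and 3 of fibroblasts (1.89) were called higher in adenomas. Called lower were 6 of 10 enterocyte genes (median -2.32), 4 of 7 of T cells (-2.74), 4 of 6 of Paneth cells (-2.58) and 4 of 8 of goblet cells (-1.09). Their part in the result was not tested.

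Cdk1, the kinase at the center of mitotic entry (probe at chr10:68801072-68801131), read 0.69, -0.44 and -0.79 in small intestine, 0.62 and 0.81 in adjacent tissue, 2.28, 1.74 and 2.08 in adenomas, 0.74, 1.31 and 0.38 in colon and 4.0, 3.60 and 3.17 in CT26. It was 4.65-fold higher in adenomas (log2 fold change 2.22, SE 0.38, adjusted p = 0.0035), with no overlap. Another Cdk1 probe gave a log2 fold change of 0.08 and the other one 1.76, neither called. Among the cyclins and markers of cycling cells, Top2a, which untangles DNA before segregation, rose by 2.13 and Ccnb1, the cyclin B that activates Cdk1, by 1.94. Mki67 (1.65), Ccna2 (1.55), Ccnb2 (1.17) and Cdc25c (1.54), the phosphatase that switches Cdk1 on, had adjusted p of 0.0103, 0.0102, 0.0199 and 0.0139 and were not called. All 7 genes of this group were above small intestine, and 3 of them passed both thresholds.

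In the group of mitotic kinases, Aurka, the kinase of the spindle poles, rose by 1.60 and its activator Tpx2 by 2.09, while Nek2, which separates the centrosomes, did not pass (1.30, adjusted p = 0.0215). The spindle checkpoint genes Bub1 (1.89), Bub1b (1.82) and Mad2l1 (1.84) rose. Ttk, the kinase that recruits the checkpoint proteins, had 1.79 with an adjusted p of 0.03, and on small intestine arrays it exceeded background clearly on 1 of 3. Bub3, their partner at the kinetochore, read 3.25, 2.94 and 3.11 in small intestine, 3.1 and 3.03 in adjacent tissue, 3.58, 3.64 and 3.50 in adenomas, 3.19, 3.07 and 2.97 in colon and 4.71, 4.50 and 4.23 in CT26. Its difference was the second smallest of all members (log2 fold change 0.47, SE 0.16, adjusted p = 0.0416).

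Birc5 (survivin, 1.48) and Incenp (1.74) of the chromosomal passenger complex rose, whereas Cdca8 (1.36, adjusted p = 0.0161) was not called. Its kinase Aurkb (probe at chr11:68865105-68865164) was not tested, since no group but CT26 had it well above background on every array. It read -4.77, 2.16 and -6.48 in small intestine, -5.88 and -6.56 in adjacent tissue, -5.51, -6.77 and -4.33 in adenomas, -6.71, -4.97 and -5.55 in colon and -3.14, -3.33 and -2.95 in CT26. Its spots stood well above background on 2 of 3 arrays of small intestine, 1 of 3 adenoma arrays, 1 of 3 colon arrays and neither adjacent array, and small intestine replicate 2 stood far above every other array, CT26 included.

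At the kinetochore, 5 of 6 genes rose: Cenpa, the centromeric histone (1.39), Cenpe, a kinetochore motor (1.76), and Ndc80 (1.2), Nuf2 (1.82) and Spc25 (1.59) of the complex that holds the microtubules. Cenpf had 1.67 with an adjusted p of 0.046, with 1 of 3 small intestine arrays well above background. Of the 6 kinesins, Kif20a (2.14), Kif2c (1.89), Kif23 (1.70) and Kif4 (1.59) rose, and Kif18a (1.64) and Kif11 (1.32), the motor that pushes the spindle poles apart, did not pass. For the midzone and cytokinesis, Prc1, which bundles the midzone microtubules, rose by 2.11, the scaffold Anln by 1.88 and Ect2, which activates RhoA at the furrow, by 1.24. Nusap1 had 1.34 with an adjusted p of 0.0136.

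Cdc20 (1.59) and Ube2c (1.48), which act with the anaphase promoting complex, and the protease separase, Espl1 (1.80), rose as well. Pttg1, which encodes securin, the inhibitor that holds separase until anaphase, did not share the pattern. It read 4.04, 3.35 and 3.61 in small intestine, 3.74 and 3.64 in adjacent tissue, 3.73, 3.54 and 3.83 in adenomas, 4.37, 4.48 and 4.11 in colon and 5.59, 6.19 and 5.73 in CT26. Adenoma, adjacent and small intestine arrays overlapped (log2 fold change 0.03, SE 0.22, adjusted p = 0.904), and its other probe gave -0.31. The levels of Pttg1 and of the other members on single arrays are in the plot of 8 mitosis genes.

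**Figure D3:**
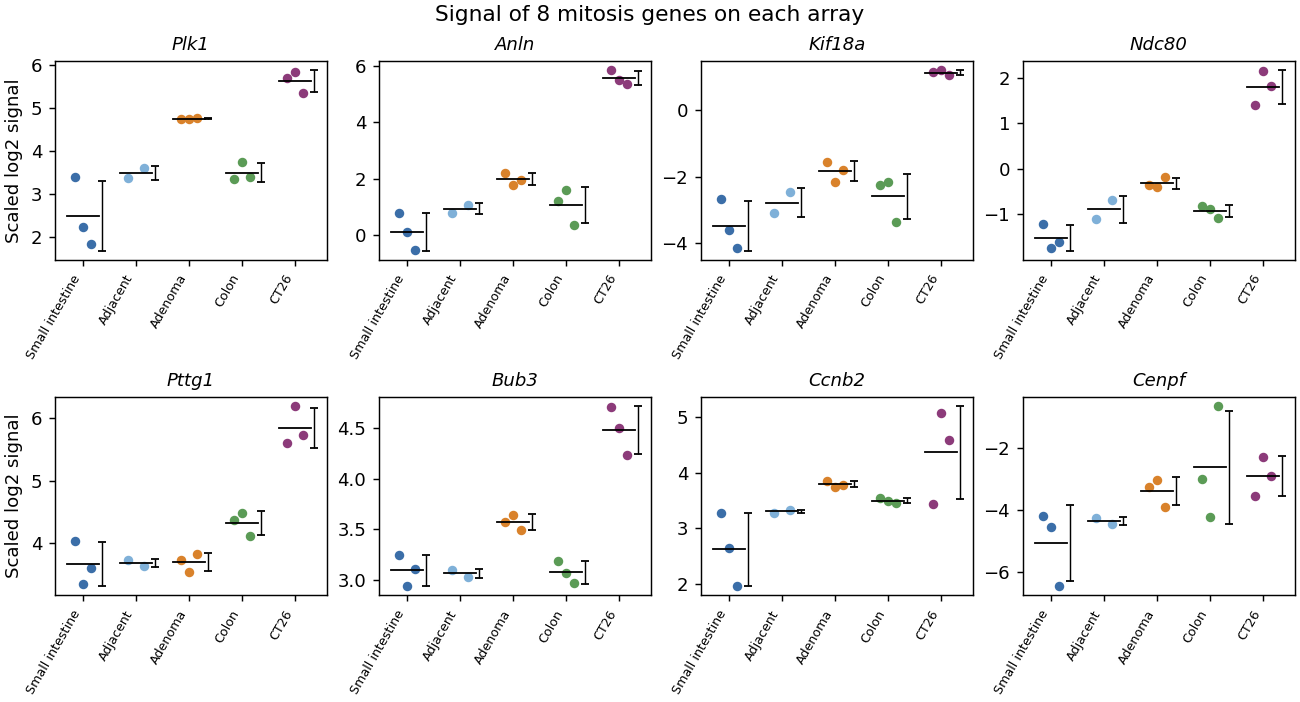
Log2 signal (vertical axes, relative to the 75th percentile of the array) of 8 mitosis genes on each array of the 5 groups (horizontal axes); points are arrays, lines are group means and bars beside them the SD. Plk1, Anln, Kif18a and Ndc80 are higher in the 3 adenoma arrays than in small intestine, Pttg1 is not, and the axes of the panels have different ranges.

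The number called depended on the arrays. It was 2 without small intestine replicate 2, 1, 2 and 1 without adenoma replicates 1, 2 and 3, 19 without small intestine replicate 3 and 35 without replicate 1, while the median fold change stayed between 1.30 and 2.05. Within each of the 2 slides 39 of the 40 differences were above 0, with medians of 1.70 on slide 1 and 1.60 on slide 2, and 14 members were called with slide as a block. Markers of other cells moved with this comparison too. The summed level of the 10 enterocyte genes was 9.15 to 9.88 in adenomas and 11.16 to 12.38 in small intestine. That of the 6 intestinal stem cell genes was 6.46 to 6.52 and 4.12 to 5.16. All these genes were well above background in both groups, and their part in the result was not tested. Of the 13 members with several probes, some differed between them: of 3 probes each, 2 were called for Ccnb1 and 1 for Cdk1, Mad2l1 and Birc5, and of 2 probes 1 was called for Tpx2. Both probes of Incenp, Kif2c and Ube2c were called, and neither probe of Mki67, Cdca8 and Pttg1 was. The dimmer probes of Nuf2 and Ect2 were not tested. No probe of a member was called lower.

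Adenomas were also compared with the adjacent tissue of the same mouse. Only Plk1 was called (2.40-fold higher, log2 fold change 1.26, SE 0.15, limma adjusted p = 0.00745) among 39 members tested, where 2.4% of all genes were called higher and 1.78% lower. The differences were smaller than those with small intestine, with a median of 0.87, where the median of all genes was -0.04. At an adjusted p of at most 0.05 alone 27 members were higher in adenomas and none lower, where 9.94% of all genes were higher. Every adenoma array lay above both adjacent arrays for 37 of the 39, a pattern seen in 28.3% of all genes tested. Cdk1 (1.32, adjusted p = 0.0138) and Ttk (1.24, adjusted p = 0.0261) exceeded the fold threshold alone, as did Tpx2 (1.2, adjusted p = 0.0105). The call of Plk1 was lost with quantile normalization and in the authors' table (log2 fold change 1.19 in both), in 4 other settings, and without adjacent replicate 1 or any adenoma replicate. Of 6 genes of neutrophils and monocytes, 3 were called higher (median 2.08), and of 10 enterocyte genes 1 was called lower (median -1.47). All 10 smooth muscle genes were lower in adenomas (median -1.51), with none called. The part of these cells was not tested.

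The smallest differences were those of Pttg1 (0.01, SE 0.16, adjusted p = 0.964) and Nek2. For Nek2 the arrays read -0.20, -0.97 and -1.66 in small intestine, -0.08 and 0.15 in adjacent tissue, 0.59, 0.10 and 0.39 in adenomas, 0.13, 0.42 and 0.02 in colon and 1.85, 2.26 and 1.67 in CT26. Here 1 adenoma array lay below an adjacent array (log2 fold change 0.32, SE 0.20, adjusted p = 0.29). Median differences were 1.02 within slide 1 and 0.62 within slide 2.

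Adjacent tissue lay between small intestine and adenomas for 38 of the 40 genes by group means, with Aurkb and Bub3 outside. The share of all genes with adjacent tissue between is not given here, so this count does not set the members apart. The median position was 0.48 of the way from small intestine to adenoma, and for the 38 genes it ranged from 0.10 to 0.75. By the study's sample list both adjacent pieces came from 1 APCmin/+ mouse, so tissue, genotype and mouse cannot be told apart against small intestine. The difference from small intestine had a median of 0.86 over 38 genes tested, and 37 were above 0, where 44.8% of all genes were. No member passed the thresholds in limma, 4 had an unadjusted p below 0.05, against 30.6% of all genes, and none an adjusted p of at most 0.05, and 0.00924% of all genes were called higher and 0% lower. Both adjacent arrays lay above all small intestine arrays for 22 of the 38, against 21.9% of all genes. Bub3 (-0.03) and Pttg1 (0.02) differed least, and Cenpe (1.16), Mki67 (1.16) and Kif2c (1.14) most, all with adjusted p of 0.142 or more. The median was 0.54 without small intestine replicate 3 and 1.19 without replicate 1, and 0.69 and 1.03 within slides 1 and 2. In the same comparison the median was 1.87 for endothelium (5 of 6 genes above 0), 1.34 for neutrophils and monocytes (5 of 5 tested), 1.02 for fibroblasts (5 of 6), 0.997 for intestinal stem cells (6 of 6), -0.86 for epithelium (0 of 8), -0.89 for enterocytes (1 of 10) and -1.22 for T cells (1 of 7), with no gene of these lists called, and Gpx5 was called higher (9.91). Their part was not tested.

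Colon was compared with small intestine as the other tissue that the study calls healthy. The sources conflict on whether all of the colon came from wild type mice. The median difference was 0.90 over 38 members tested, and 37 were above 0, but none passed the thresholds in limma, where 0.00484% of all genes were called higher and the same share lower. An unadjusted p below 0.05 was found for 21 members, against 23.9% of all genes, and an adjusted p of at most 0.05 for none. Every colon array lay above every small intestine array for 11 of the 38, against 12% of all genes. Cenpf differed most (2.44, SE 1.0, adjusted p = 0.207), with 1 of 3 small intestine arrays well above background, and Bub3 (-0.02, adjusted p = 0.963) and Cenpa (0.38, adjusted p = 0.524) least. Cenpa, whose probe maps to chr5:30974916-30975386, read 1.21, 0.68 and 0.08 in small intestine, 1.01 and 1.08 in adjacent tissue, 2.36, 1.93 and 1.85 in adenomas, 0.92, 1.29 and 0.90 in colon and 3.54, 4.28 and 3.88 in CT26, so that colon overlapped small intestine. Without colon replicate 3 the median was 1.02, and no member was called either. It was 1.06 and 0.86 within slides 1 and 2. In the same comparison the median was -6.48 for enterocytes (0 of 10 genes above 0) and 3.56 for B cells (7 of 7 tested), with no gene of these lists called. Whether these cells play a part was not tested.

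Colon replicate 3 was not lower for all members. Its median of 0.55 was the lowest of the colon arrays and 8 members lay above their group mean there, but Birc5, Cdca8, Ccna2, Cdc20, Cenpf and, narrowly, Aurka were higher than on both other colon arrays. Birc5, which also protects cells from death, read 4.54, 3.86 and 3.29 in small intestine, 4.70 and 4.89 in adjacent tissue, 5.45, 5.33 and 5.34 in adenomas, 4.52, 4.66 and 5.56 in colon and 6.06, 6.78 and 6.26 in CT26. Cenpf, a large protein of the outer kinetochore (probe at chr1:191464978-191465037), read -4.22, -4.54 and -6.46 in small intestine, -4.28 and -4.46 in adjacent tissue, -3.26, -3.05 and -3.90 in adenomas, -3.02, -4.24 and -0.65 in colon and -3.57, -2.30 and -2.90 in CT26. This array also had the highest summed B cell, small intestine enterocyte and Paneth cell levels of the colon arrays. The part of these cells was not tested.

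Adenomas differed less from colon than from small intestine. No member was called in limma among 39 tested (2.07% of all genes were called higher and 1.63% lower), 28 had an unadjusted p below 0.05, against 29.2% of all genes, and 12 had an adjusted p of at most 0.05, all higher in adenomas, where 6.8% of all genes were higher at that limit. The median was 0.77. All adenoma arrays lay above all colon arrays for 33 of the 39, against 19.4% of all genes, and Pttg1 was the one member for which they lay below (log2 fold change -0.62, SE 0.19, adjusted p = 0.0929). Top2a (1.48, adjusted p = 0.0176), Plk1 (1.26, adjusted p = 0.0117) and Cdk1 (1.23, adjusted p = 0.0485) had the largest differences. Cenpf was lower on average (-0.77, SE 0.88, adjusted p = 0.624), with overlap. Nek2 (0.17, adjusted p = 0.672) and Ccna2 had the smallest differences. Ccna2, the cyclin A of S phase and early mitosis, read 2.52, 1.83 and 1.03 in small intestine, 2.75 and 2.87 in adjacent tissue, 3.34, 3.35 and 3.34 in adenomas, 2.93, 3.01 and 3.28 in colon and 3.24, 4.51 and 3.85 in CT26, with an adenoma minus colon difference of 0.27 (SE 0.18, adjusted p = 0.38). Without colon replicate 3, 1 member was called. Markers of other cells differed in this comparison as well. Called lower in adenomas were 7 of 10 genes of smooth muscle (median -2.53), 4 of 8 of colonocytes (-4.12) and 2 of 7 of B cells (-3.18). Called higher were 3 of 6 genes of intestinal stem cells (median 2.03) and 3 of 6 of neutrophils and monocytes (4.40). Their part was not tested.

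CT26 cells were compared with colon, the tissue of origin of the line. Of the 40 members, 35 were higher in CT26 and none lower in limma, where 21% of all genes tested were called higher and 16.2% lower. The median was 2.46, beside 0.32 for all genes. Markers of other cells differed by more. Called lower in CT26 were 8 of 8 epithelial genes (median -12.1), 9 of 10 of smooth muscle (-9.82) and 7 of 8 of goblet cells (-14.66). Of these lists, 1 goblet cell gene was called higher. Whether these cells play a part was not tested. Anln, the actin-binding scaffold of the contractile ring (probe at chr9:22136685-22136744), read 0.77, 0.09 and -0.56 in small intestine, 0.78 and 1.06 in adjacent tissue, 2.20, 1.79 and 1.96 in adenomas, 1.2, 1.60 and 0.34 in colon and 5.86, 5.52 and 5.37 in CT26. The CT26 arrays lay far above all others, and Anln was 23.2-fold higher than in colon (log2 fold change 4.54, SE 0.39, adjusted p = 6.62e-05). Kif18a, the kinesin that damps chromosome movements at the metaphase plate, read -2.66, -3.58 and -4.15 in small intestine, -3.09 and -2.46 in adjacent tissue, -1.54, -2.14 and -1.80 in adenomas, -2.24, -2.16 and -3.36 in colon and 1.15, 1.21 and 1.06 in CT26, a 13.2-fold difference from colon (log2 fold change 3.72, SE 0.38, adjusted p = 0.000169).

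All 4 mitotic kinases and spindle genes, all 5 checkpoint genes, all 6 kinesins, all 4 midzone genes and all 4 genes around the anaphase promoting complex were called. Tpx2 (3.45), Cdc25c (3.34), Espl1 (3.14), Aurka (3.02) and Bub1 (3.0) followed Anln and Kif18a. Tpx2 read 0.18, -0.82 and -1.34 in small intestine, 0.05 and 0.40 in adjacent tissue, 1.38, 1.42 and 1.48 in adenomas, 0.49, 0.64 and 0.00 in colon and 3.96, 3.87 and 3.66 in CT26, and its other probe gave a log2 fold change of 1.36 with colon, also called. Pttg1 (1.52, adjusted p = 0.00393) and Bub3 (1.40, adjusted p = 0.00406), which had differed least in adenomas, were called here. Aurkb was 6.06-fold higher (log2 fold change 2.60, SE 0.46, adjusted p = 0.00238), with 1 of 3 colon arrays well above background. Ttk read -3.59, -3.92 and -5.76 in small intestine, -4.11 and -3.64 in adjacent tissue, -2.37, -2.99 and -2.55 in adenomas, -3.20, -2.76 and -4.70 in colon and -1.2, -0.24 and -0.81 in CT26, and was 7.0-fold higher (adjusted p = 0.00355).

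The 5 members that were not called in CT26 were Mki67 (0.81, adjusted p = 0.0499), Ccna2 (0.79, adjusted p = 0.114), Ccnb2 (0.87, adjusted p = 0.131), Birc5 (1.45, adjusted p = 0.0146) and Cenpf (-0.29, adjusted p = 0.799). Mki67, which coats mitotic chromosomes and is the usual marker of cycling cells, read 4.10, 3.16 and 2.54 in small intestine, 4.29 and 4.56 in adjacent tissue, 4.84, 4.80 and 5.09 in adenomas, 4.69, 4.66 and 4.17 in colon and 5.53, 5.14 and 5.28 in CT26. Its CT26 values were above all others but by less than for most members. Ccnb2, a second cyclin B, read 3.27, 2.64 and 1.96 in small intestine, 3.28 and 3.33 in adjacent tissue, 3.86, 3.74 and 3.78 in adenomas, 3.55, 3.48 and 3.46 in colon and 3.44, 5.06 and 4.59 in CT26, with CT26 replicate 1 just below the colon arrays and the other CT26 arrays above them. For Birc5 the other 2 probes were called (1.71 and 1.64). Without CT26 replicate 2, 29 members were called, and without colon replicate 3, 36. Within slides the medians were 2.13 and 2.79. The scaling mattered too. The median of all probes was 0.37 with the 75th percentile and -0.14 when arrays were scaled to the median. With median scaling the members' median was 1.95 and 29 were called. Relative to all probes the members' median was 2.09 in both, since these scalings differ only by a constant per array. It was 1.64 in the authors' table and 1.73 with quantile normalization.

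**Figure D4:**
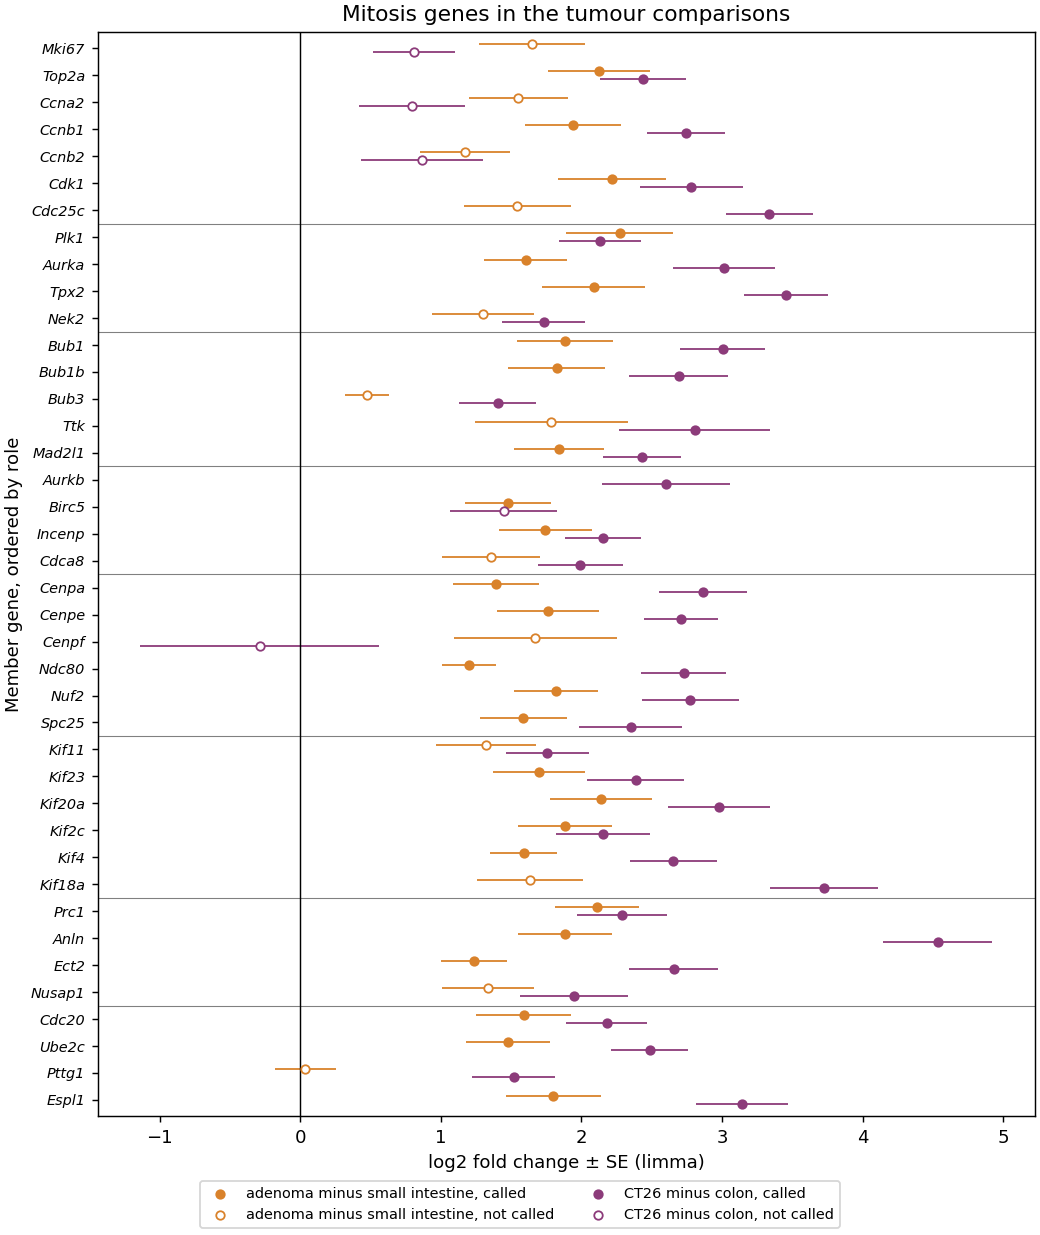
Log2 fold change with its SE (horizontal axis) of each mitosis gene (vertical axis, by role) for adenoma minus small intestine and CT26 minus colon; filled points were called, open points were not, and Aurkb has no adenoma value. Most CT26 points lie to the right of the adenoma points, Anln reaches 4.54, and Mki67, Ccna2, Ccnb2, Cenpf, Birc5 and Plk1 are the members with CT26 points to the left.

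CT26 was set against adenomas to compare the cell line with the early tumor directly, a pair that is not among the study's own. In limma, 30 of the 40 members were higher in CT26 and none lower, where 21.9% of all genes were called higher and 20% lower. The median was 1.70, beside 0.34 for all genes. Called lower in CT26 were also 8 of 8 epithelial genes (median -12.0), 10 of 10 enterocyte genes (-12.14) and 6 of 6 of intestinal stem cells (-9.16). Whether these cells play a part was not tested. Anln (3.60, 12.1-fold, adjusted p = 4.45e-06) and Kif18a (2.97, 7.83-fold, adjusted p = 1.23e-05) led again, followed by Cdc25c (2.77), Tpx2 (2.40), Aurkb (2.40, with 1 of 3 adenoma arrays well above background) and Aurka (2.27). Pttg1 was 4.41-fold higher than in adenomas (2.14, adjusted p = 0.000104). Plk1 (0.88), Top2a (0.96), Bub3 (0.91), Birc5 (0.99), Kif11 (0.94) and Prc1 (1.08) had adjusted p of at most 0.01 but stayed under the fold threshold. Mki67 (0.40, SE 0.20, adjusted p = 0.12) and Cenpf (0.48, SE 0.37, adjusted p = 0.29) differed least.

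Ccnb1 illustrates the order of the groups. It read 1.74, 0.73 and 0.38 in small intestine, 1.79 and 1.85 in adjacent tissue, 3.0, 2.84 and 2.83 in adenomas, 1.80, 2.12 and 1.78 in colon and 4.63, 4.80 and 4.50 in CT26, and was 3.37-fold higher in CT26 than in adenomas (adjusted p = 0.000116), with 2 of its 3 probes called. Mad2l1, the checkpoint protein that binds Cdc20, read 1.67, 0.96 and 0.36 in small intestine, 1.64 and 1.82 in adjacent tissue, 2.94, 2.76 and 2.80 in adenomas, 1.84, 1.97 and 1.61 in colon and 4.13, 4.45 and 4.13 in CT26, and was 2.64-fold higher (adjusted p = 0.000472) by the brightest of 3 probes, the only one called. This comparison depended on scaling. The number called was 22 in the authors' table, 23 with quantile normalization and 19 with median scaling, with medians of 1.21, 1.26 and 1.21. Under median scaling 38 of 40 differences were above 0. The difference of Mki67 turned to -0.09 there, to -0.11 with quantile normalization and to -0.06 in the authors' table, without a call in any of them.

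Whether the genes differed more in CT26 against colon than in adenomas against small intestine was tested as a difference of the differences, which share no array. In limma, 3 members were called, all with a smaller difference in adenomas, and none the other way, where 15.5% of all genes were called lower and 15.3% higher. They were Anln (-2.65, SE 0.54, adjusted p = 0.00214), Ndc80 (-1.52, SE 0.34, adjusted p = 0.00393) and Pttg1 (-1.48, SE 0.35, adjusted p = 0.00535). Ndc80, the subunit that grips the microtubule, read -1.21, -1.75 and -1.61 in small intestine, -1.11 and -0.68 in adjacent tissue, -0.37, -0.41 and -0.19 in adenomas, -0.82, -0.88 and -1.08 in colon and 1.41, 2.16 and 1.82 in CT26. Its step from small intestine to adenoma was 1.2 and that from colon to CT26 2.73. Birc5 (0.03, adjusted p = 0.964) and Plk1 (0.14, adjusted p = 0.84) had nearly equal steps. Mki67 (0.84, adjusted p = 0.187), Ccna2 (0.76, adjusted p = 0.278) and Cenpf (1.96, adjusted p = 0.193) had larger steps in adenomas that did not pass. The median over the members was -0.82 beside -0.42 for all genes. It followed the scaling: it was -0.33 in the authors' table, -0.28 with quantile normalization and -0.30 with median scaling, and relative to the median of all probes it was -0.37 with the 75th percentile, -0.03 in the authors' table and 0.03 with quantile normalization. Quantile normalization took the calls of Anln (-2.09, adjusted p = 0.0101) and Pttg1 (-0.69, adjusted p = 0.204), and median scaling those of Ndc80 (-0.999, adjusted p = 0.0375) and Pttg1 (-0.96, adjusted p = 0.048). In the authors' table Pttg1 was at -0.76 (adjusted p = 0.116). With every probe tested, and without small intestine replicate 1 or adenoma replicate 1 or 2, Anln alone was called. Pttg1 also lost its call with the replicate block and without small intestine replicate 3, adenoma replicate 3, colon replicate 1, or CT26 replicate 2 or 3. In the main setting all 8 epithelial markers were called higher in this test (median 11.33), and their part was not tested.

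Further genes of mitosis and genes of DNA replication, listed by function, were described in the same way. Of 77 further mitosis genes found (83 listed), 41 of 76 tested were called higher in adenomas than in small intestine, 1 of 76 higher than in adjacent tissue, and 63 of 76 higher in CT26 than in colon, and none lower in these comparisons. Over all genes 11.3%, 2.4% and 21% were called higher and 11.1%, 1.78% and 16.2% lower. The medians of the further mitosis genes were 1.5, 0.77 and 2.31. Kntc1, a kinetochore protein that recruits the checkpoint (2.63), and Mastl, a kinase that keeps mitotic phosphatase off (2.57), had the largest adenoma values, and the histone chaperone Hjurp (-0.89, adjusted p = 0.0196) and the anaphase promoting complex activator Fzr1 (-0.60, adjusted p = 0.041) were the genes with an adjusted p of at most 0.05 in the other direction. In CT26 against colon, Troap (4.89) and Cenpn (4.32) stood highest and Cdc23, a subunit of the anaphase promoting complex, lowest (-0.06, adjusted p = 0.869).

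Of 32 DNA replication genes, 18 were called higher in adenomas than in small intestine, 6 higher than in adjacent tissue and 23 higher in CT26 than in colon. Over all genes 11.3%, 2.4% and 21% were called higher. Pole, the catalytic subunit of DNA polymerase epsilon, rose by 2.93 in adenomas against small intestine and by 1.58 against adjacent tissue. In CT26 against adenomas, 14 were called higher and 1 lower, Prim2 (-1.53, adjusted p = 0.000617). Over all genes 21.9% were called higher there and 20% lower. On the small intestine arrays the replication genes had medians of 1.99, 1.56 and 1.15, in the order of the mitosis genes, while on colon replicate 3 they had 2.13, as on the other colon arrays (2.14 and 2.15).

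**Figure D5:**
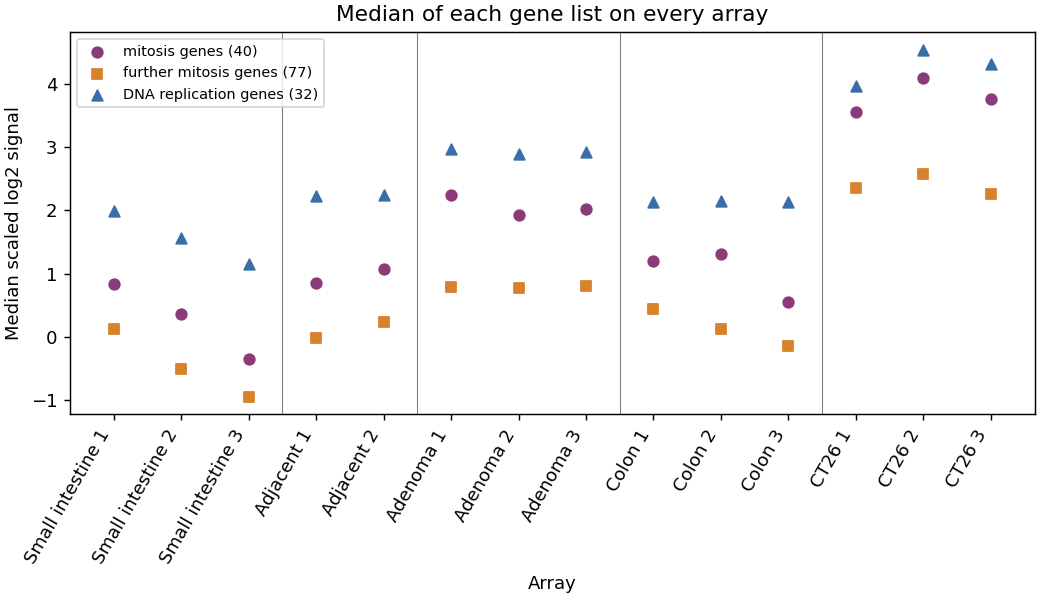
Median log2 signal (vertical axis, relative to the 75th percentile of the array) of the 40 mitosis genes, 77 further mitosis genes and 32 DNA replication genes on each of the 14 arrays (horizontal axis). All lists are highest on the CT26 arrays and next on the adenoma arrays, and within small intestine replicate 1 is the highest and replicate 3 the lowest; levels are not comparable between lists, since they come from different probes.

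Outside the members, the 10 genes whose brightest probe followed the members' median most closely over the 14 arrays, among 17995 with a probe well above background on at least 12 arrays, were Shcbp1, Tipin, Fbxo5, Abi2, Gm6340, Kntc1, Pop1, Rbbp7, Bard1 and Cenpi. Their Pearson r lay between 0.9895 and 0.9941. Shcbp1, Fbxo5, Kntc1 and Cenpi were on the list of further mitosis genes.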

How the data were processed

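RNA of 14 samples was hybridized to SurePrint G3 Mouse one-color arrays with 62976 spots. For every array the authors deposited the file written by the scanner software (Agilent Feature Extraction 10.7.3.1). Its processed signal, an intensity, is corrected for background within that array. They also deposited a table of normalized log2 values, whose normalization method is not given in the sources used here and which served as an alternative. Fold changes and p-values of the authors' own comparisons, in the study's tables, were not used.

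Control and outlier spots were left out, spots of one probe were averaged (55681 probes), and values were log2 processed signal minus the 75th percentile of the array. Each gene was read from its brightest probe over all arrays. Between 46.9% and 58.2% of the probes on an array stood well above background, and the number of arrays limits the precision. The 7 pairs of groups were fitted on their own arrays with limma 3.58.1 (R 4.3.3), over probes that stood well above background on all arrays of 1 or more groups, with Benjamini-Hochberg adjustment over all probes and the study's thresholds, a log2 fold change of at least 1.2 and an adjusted p of at most 0.01. Counts over all genes use the brightest probe of each. The difference of the differences was fitted on the 4 groups concerned.

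All 40 members could be named. Values on every array were given for the called members with the largest changes and the members with the smallest in each comparison, those not well above background on some array and those whose probes differed in their calls, plus Ccnb2. The members and lists were chosen with earlier results of these data known. Replicate numbers were not taken to pair samples, since in no comparison with 3 pairs did every pair of deviations correlate above 0.1. With 2 pairs the correlations were 0.291 and 0.141 in adjacent versus small intestine, and -0.00997 and -0.0356 in adenoma versus adjacent. The check used the numbers of the source labels, which the titles of the adjacent arrays do not match. It cannot settle whether adenoma and adjacent pieces were paired. Alternatives were the background correction, scaling, quantile normalization, the authors' table, the probe filter, probe averaging, slide and replicate blocks, all groups in 1 fit, an intensity trend, other thresholds and leaving out each array. The fitting steps were tested on simulated data. Probe positions are those of the scanner files (mm9), and promoter sequences are from RefSeq (GRCm38.p6).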

Additional observations from a re-analysis of the deposited data

Results flagged for a closer look

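Anln, Ndc80 and Pttg1 differed between the adenoma contrast (adenoma minus small intestine) and the CT26 contrast (CT26 minus colon) by limma's test of the difference of the differences. They were 3 of 40 members tested, a smaller share than over all genes, where 15.5% were called lower and 15.3% higher. For Anln the difference was -2.65 (SE 0.54, adjusted p = 0.00214), with contrasts of 1.88 and 4.54. For Ndc80 it was -1.52 (SE 0.34, adjusted p = 0.00393), with contrasts of 1.2 and 2.73. For Pttg1 it was -1.48 (SE 0.35, adjusted p = 0.00535), with contrasts of 0.03 and 1.52, and its dimmer probe gave -2.91 (adjusted p = 0.00102). The call of Anln was lost with quantile normalization, and that of Ndc80 with median scaling, with every probe tested, and without small intestine replicate 1 or adenoma replicate 1 or 2. The call of Pttg1 was lost in all of these settings, in the authors' table (-0.76, adjusted p = 0.116), with the replicate block (adjusted p = 0.012), and without small intestine replicate 3, adenoma replicate 3, colon replicate 1, or CT26 replicate 2 or 3.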

How the results depend on the processing

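No called value changed sign under any alternative run. In adenoma versus small intestine, 10 members were called with every probe tested and 14 with slide as a block, and between 1 and 35 when 1 array was left out (2 without small intestine replicate 2, 35 without replicate 1, and 1, 2 and 1 without adenoma replicates 1, 2 and 3). In adenoma versus adjacent tissue, where 1 was called, the number was 2 with normexp, 2 with probes above background in both groups and 3 with an intensity trend, and 0 with quantile normalization, every probe tested, slide as a block, the replicate block or all 5 groups in 1 fit. It was 27 at an adjusted p of at most 0.05 alone, 13 with a log2 fold change of at least 1 added, and 0 to 1 with an array left out (0 without adjacent replicate 1 or any adenoma replicate). The adjusted p of Plk1 there ranged from 0.00218 to 0.09. In adenoma versus colon, 2 were called with an intensity trend, 12 and 9 at those looser thresholds, and 0 to 1 with an array left out (1 without colon replicate 3). For CT26 versus colon the median was 1.96 in the authors' table and 1.95 with median scaling. For CT26 versus adenoma it was 1.21 in the authors' table, 1.26 with quantile normalization and 1.21 with median scaling, where 19 members were called. For the difference of the differences the median was -0.33, -0.28 and -0.30 in those settings. The number called there was 7 with normexp, 1 with quantile normalization, 1 with median scaling, 1 with every probe tested, 5 with probes above background in every group, 12 and 11 at the looser thresholds, and 1 to 7 with an array left out (1 without small intestine replicate 1 or adenoma replicate 1 or 2, 7 without small intestine replicate 3). The cause of these changes was not tested. With the replicate block, 22 members were called in adenoma versus small intestine and 33 in CT26 versus colon. The block took the numbers of the source labels; the titles number the 2 adjacent arrays 2 and 3, so which adenoma array an adjacent array goes with is not settled. Dim probes limit Ttk, Cenpf and Aurkb.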
